A study of Mus musculus with 4 samples.

Results

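Ppara and 8 genes that the liver switches on in fasting through the receptor it encodes were followed across the 4 arrays of a study of hepatic Sirt6. The 9 genes, Ppara, Cpt1a, Angptl4, Fgf21, Pdk4, Vnn1, Acot1, Acot2 and Ehhadh, were chosen by name from a list of receptor and targets and found by their platform gene symbol. All 9 were among the 19938 named genes of the array, each with a probe set of its own, and all 9 passed the filter on low levels, a 4-array mean above a log2 level of 3.34 (the 40th percentile), which left 11963 genes for testing. Livers of wild type SIRT6 mice (WT) and of mice labelled SIRT6Co/Co ;Alb-Cre (KO), a conditional Sirt6 allele with Cre recombinase under the albumin promoter, were collected at 2 and at 8 months of age. Albumin-driven Cre acts in hepatocytes, and how far other cells of the liver keep the allele was not measured here. The sources used here do not say whether the WT mice carried Cre or the conditional allele. Each of the 4 groups is 1 Affymetrix Mouse Gene 1.0 ST array of total RNA combined from 3 pairs of mice. A difference between 2 arrays at 1 age is therefore a value with no test, and the spread between mice cannot be measured. The sex of the mice, their feeding state and the hour of collection were not stated in those sources.

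PPAR alpha, the protein of Ppara, is a nuclear receptor for fatty acids that binds DNA together with a retinoid X receptor. In the liver it is most active in fasting, when fatty acids arrive from adipose tissue, and it then raises the genes for their activation, their entry into mitochondria, their oxidation in mitochondria and peroxisomes and the making of ketone bodies. Its targets include enzymes of the oxidation itself and secreted proteins that signal to other tissues. Several of these targets also answer to other signals, such as glucocorticoids (Angptl4, Pdk4) and the stress factor ATF4 (Fgf21).

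The arrays were alike in their overall levels, with medians between 3.52 and 3.58 on the log2 scale over all probe sets. The Sirt6 probe set read 4.55 (2 months) and 4.50 (8 months) in WT and 4.54 and 4.46 in KO, with a limma adjusted p of 0.92. It did not set the genotypes apart, so the libraries are called by their labels and every direction below rests on those labels. Its exons were not stated. The hepatocyte markers were bright on every array: Alb, the gene whose promoter drives Cre, read 12.52 to 12.60 and 0 of 8 tested hepatocyte markers rose, while 1, the fibrinogen chain Fga, fell. The call for Fga, at a mean of -0.34, was lost in 4 of 8 alternatives (adjusted p 0.0012 to 0.22), with a mean of -0.16 when the highest probe set was taken. Of 6 adipocyte markers on the array, 4, among them the hormones Adipoq and Lep at 2.07 to 2.36, were below the level needed for testing. Of the other 2, Pparg rose and Plin1 was at a mean of -0.32 (adjusted p 0.20). The log2 summed level of these 2 alone, without the 4 untested markers, was 6.28 and 6.18 in WT and 6.62 and 6.66 in KO. Genes of rapid stimulation moved strongly with the genotype label: 13 of 13 tested immediate early genes rose, against 6.81% of all genes tested. Fos read 4.49 and 4.39 in the WT and 8.12 and 8.17 in the KO arrays. Egr2, at 3.05 and 3.27 in WT, passed the filter at 3.34 only through its KO levels of 6.19 and 6.10. Ier3, a listed gene named after its value was seen, read 2.92 to 3.17 and was not tested. The part of the immediate early genes in the differences of the PPAR alpha targets was not tested.

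The receptor and most of these targets were lower in the KO-labelled livers, with Vnn1 and Pdk4 as the exceptions. In an additive limma model of genotype and age over all 4 arrays, 7 of the 9 genes fell, Vnn1 rose and Pdk4 did not pass the test at an adjusted p of 0.05. Over all 11963 genes tested, 4.26% fell, 6.81% rose and 11.1% passed in either direction. Counts of called genes in each list below are to be read against these shares. The words rose and fell below are kept for genes past this adjusted p and, unless age is named, mean higher or lower in the KO-labelled arrays. The median KO minus WT difference of the 9 genes reached -0.49 in the younger and -0.50 in the older mice, against 0.01 and 0.00 for all genes tested. In 7 genes both KO arrays read below both WT arrays, an arrangement found in 25.7% of all genes tested, and in 1 gene both read above, found in 29.1%. Genotypes thus stood apart without overlap in 8 of the 9 genes and in 54.8% of all genes tested. For each gene the fit keeps 1 residual degree of freedom, which measures how far the genotype difference changes with age, so its errors do not cover the spread between pools or mice.

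**Figure D1:**
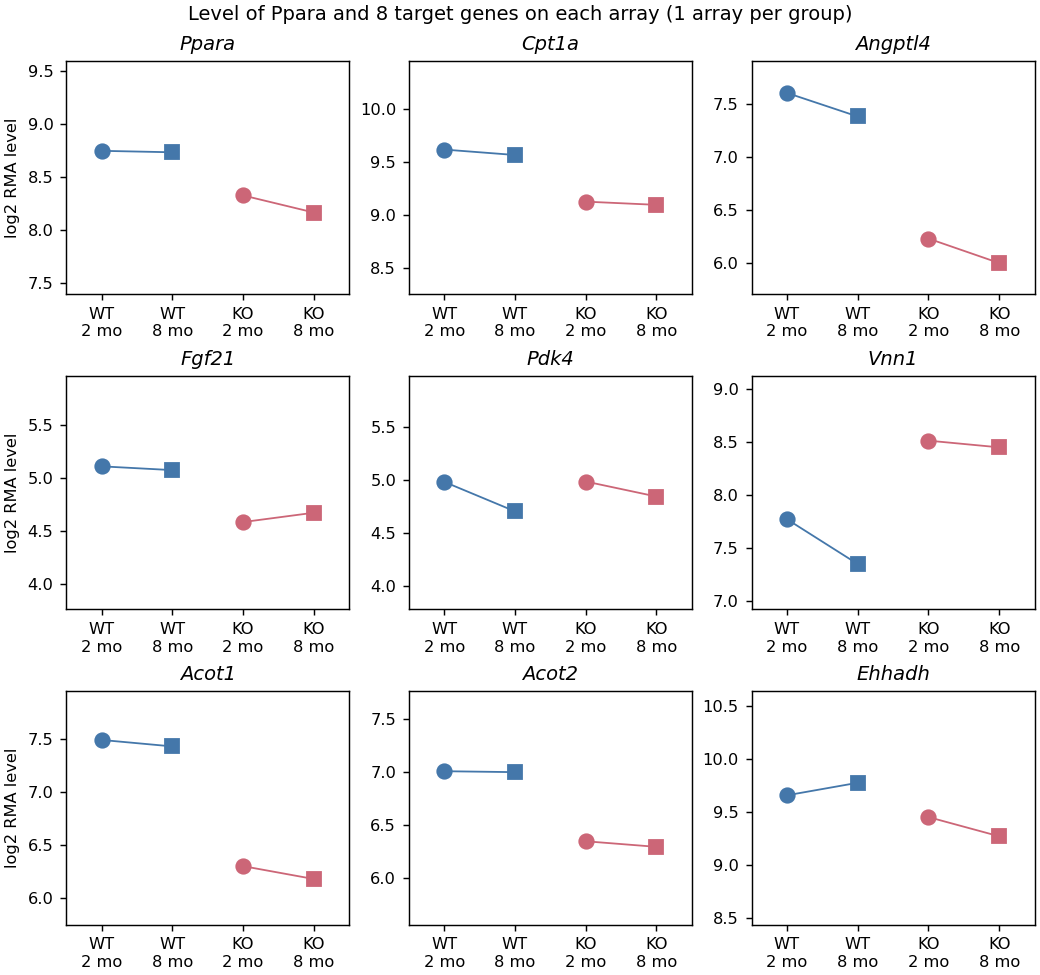
Log2 RMA level (vertical axes, each spanning 2.2 log2 units) of Ppara and 8 target genes on the 4 arrays, with WT in blue, KO in red, circles for 2 months and squares for 8 months; each point is 1 array and lines join the ages of a genotype. The KO points lie below the WT points in 7 panels, above them in the Vnn1 panel, and overlap them in the Pdk4 panel.

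Ppara itself was lower in the KO-labelled livers. It read 8.75 at 2 months and 8.74 at 8 months in the WT arrays, and 8.33 and 8.17 in the KO arrays. Both KO levels lay below both WT levels, and the 2 WT levels were 0.01 log2 units apart. The difference between genotypes came to -0.42 at 2 months and -0.57 at 8 months, a level 1.34-fold and 1.48-fold lower. In the limma model Ppara fell by 0.49 (SE 0.08, 2 arrays per genotype, adjusted p 0.0015). RNA levels of whole liver cannot tell fewer cells of a type from less RNA per cell, here and for every gene below.

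The 300 bases around the start site of Ppara, from 250 before to 50 after it, were taken from RefSeq for the GRCm38.p6 assembly (chr15:85735526-85735825, plus strand). They are shown with those of Cpt1a (chr19:3323051-3323350, plus strand), because a receptor and the enzyme at the gate of the pathway it drives fell by nearly the same amount. Each runs 5′ to 3′ and capitals mark an exact AGGTCA half-site on either strand, the sequence that nuclear receptors of this group bind in pairs.
Ppara: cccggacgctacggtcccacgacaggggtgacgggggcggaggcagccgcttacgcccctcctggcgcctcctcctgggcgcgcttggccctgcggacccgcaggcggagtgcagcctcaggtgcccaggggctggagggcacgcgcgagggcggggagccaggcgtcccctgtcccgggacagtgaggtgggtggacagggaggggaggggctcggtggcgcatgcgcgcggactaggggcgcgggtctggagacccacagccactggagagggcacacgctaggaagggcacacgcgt
Cpt1a: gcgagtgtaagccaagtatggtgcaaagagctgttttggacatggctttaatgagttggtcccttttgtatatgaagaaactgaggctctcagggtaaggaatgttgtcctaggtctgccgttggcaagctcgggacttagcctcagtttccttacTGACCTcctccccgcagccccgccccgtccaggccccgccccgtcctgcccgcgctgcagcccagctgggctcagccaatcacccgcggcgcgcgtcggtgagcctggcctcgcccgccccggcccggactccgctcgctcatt
The window of Cpt1a held 1 half-site, on the strand opposite to the gene with its first base at position -94 relative to the start site, and that of Ppara held none. This half-site was searched for only after the paired motif had given no match. It was present in 16.3% of all 32851 promoter windows. A match in a window is a description of its letters and not a binding site.

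Windows were available for 7 of the 9 genes, Ppara, Cpt1a, Fgf21, Pdk4, Acot1, Acot2 and Ehhadh. The paired motif, 2 AGGTCA half-sites in the same direction with 1 base between them, was searched on both strands with at most 2 mismatches over its 12 fixed letters. It was found in 0 of these 7 windows and in 3.86% of all windows. With up to 3 mismatches Acot2 had it, as did 24.6% of all windows.

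Cpt1a makes the carnitine acyltransferase of the outer mitochondrial membrane, the step that commits long-chain fatty acids to oxidation. Its level was 9.62 at 2 months and 9.57 at 8 months in WT, and 9.13 and 9.10 in KO. The genotypes did not overlap, and the differences of -0.49 and -0.47 were nearly the same at both ages. Cpt1a fell by 0.48 (SE 0.08, limma adjusted p 0.0011), which is 1.40-fold. Of 10 tested genes of the carnitine shuttle and of malonyl-CoA, the metabolite that inhibits this enzyme, 3 fell, 1 rose and 6 did not pass. The plasma membrane carnitine transporter Slc22a5 fell by 0.69 (SE 0.11). The acetyl-CoA carboxylases, which make malonyl-CoA, went opposite ways: Acaca, the isoform of fatty acid synthesis, rose by 0.70 (SE 0.09), and Acacb, the isoform at the mitochondrial surface, fell by 0.68 (SE 0.11). Cpt2, the inner membrane partner of Cpt1a, was at 0.02 and 0.05.

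Ehhadh encodes a bifunctional enzyme of peroxisomal fatty acid oxidation. It read 9.65 and 9.77 in the WT and 9.45 and 9.27 in the KO arrays. All KO levels were below the WT levels, but the difference was -0.21 at 2 months and -0.50 at 8 months. From 2 to 8 months the level was 0.12 higher in WT and 0.18 lower in KO. Ehhadh fell by 0.36 (SE 0.09, limma adjusted p 0.019), but this call was lost without the expression filter (adjusted p 0.078), with each array centred on its median (0.11) and without the intensity trend (0.11), in a range of 0.00048 to 0.11 over 8 alternatives. A model of genotype alone lost it without WT (0.064) or KO (0.092) at 8 months. In the list of peroxisomal oxidation, 3 of 12 tested genes fell and 0 rose. The thiolase Acaa1a was lower by 0.41 and 0.54, with an SE of 0.09 for the mean. The peroxisome proliferation gene Pex11a had differences of -0.26 and -0.36, and its adjusted p of 0.027 ranged from 0.003 to 0.17 over the alternatives. Hsd17b4, the parallel bifunctional enzyme, was at 0.02 and -0.01.

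Acot1 and Acot2 encode acyl-CoA thioesterases, cytosolic and mitochondrial, which split fatty acyl-CoA into free fatty acid and coenzyme A. Acot1 read 7.49 and 7.43 in the WT arrays and 6.30 and 6.18 in the KO arrays. No KO level came within 1 log2 unit of a WT level. Its differences of -1.19 and -1.25 correspond to 2.28-fold and 2.38-fold lower levels (limma mean -1.22, SE 0.09, adjusted p 2.1e-06). Acot2 read 7.01 and 7.0 in WT and 6.35 and 6.29 in KO, with differences of -0.66 and -0.70, or 1.58-fold and 1.63-fold (limma mean -0.68, SE 0.09, adjusted p 0.00041). The genes are neighbours of close sequence, with start sites 21.6 kb apart on chromosome 12, and their probes may not fully separate the transcripts. To show the pair, their start site windows are given in the same way, for Acot1 from chr12:84009252-84009551, plus strand and for Acot2 from chr12:83987611-83987910, plus strand.
Acot1: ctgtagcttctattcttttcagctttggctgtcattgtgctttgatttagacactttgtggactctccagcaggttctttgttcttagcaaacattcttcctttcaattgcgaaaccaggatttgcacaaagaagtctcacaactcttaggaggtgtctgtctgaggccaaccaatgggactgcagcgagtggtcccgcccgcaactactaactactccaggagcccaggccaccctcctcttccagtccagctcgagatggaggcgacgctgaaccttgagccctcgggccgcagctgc
Acot2: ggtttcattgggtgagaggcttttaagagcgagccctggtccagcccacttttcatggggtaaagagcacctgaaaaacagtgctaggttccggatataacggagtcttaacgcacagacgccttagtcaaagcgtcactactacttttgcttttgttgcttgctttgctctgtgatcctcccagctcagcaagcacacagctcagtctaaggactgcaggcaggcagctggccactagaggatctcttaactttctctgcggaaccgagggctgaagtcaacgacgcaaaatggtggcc
Neither window held an exact AGGTCA, so neither has capitals, and the longest run of bases shared by both was 9. Among 10 tested thioesterase genes, 5 fell, 1 rose and 4 did not pass. Besides Acot1 and Acot2, Acot3 fell by 0.61 (SE 0.12), and Acot4 and Acot12, chosen after their values were seen, by 0.35 and 0.26. Over the alternatives the adjusted p ranged from 0.0024 to 0.11 for Acot4 and from 0.0069 to 0.30 for Acot12. Acot9, a mitochondrial thioesterase, had differences of 0.17 in the younger and 1.31 in the older mice. Its adjusted p of 0.034 ranged from 0.00024 to 0.15 over the alternatives. The widely expressed Acot13 was at 0.12 and -0.01.

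Angptl4 showed the largest difference of the 9 genes. It encodes a secreted inhibitor of lipoprotein lipase, the enzyme that frees fatty acids from circulating triglycerides. Its level was 7.60 and 7.38 in the WT arrays and 6.23 and 6.0 in the KO arrays, a separation of more than 1 log2 unit with no overlap. The differences were -1.37 and -1.38, a level 2.59-fold lower at 2 months and 2.61-fold lower at 8 months. Counted from the lowest of the 11963 genes tested, Angptl4 stood at place 21 by its mean difference of -1.38 (SE 0.09, limma adjusted p 7.8e-07), and Acot1 at place 31. Of 9 tested genes of the ANGPTL and lipase axis, Angptl4 and Angptl8 fell, the latter by 0.60 (SE 0.09), and 0 rose. Angptl8 is a feeding-induced partner of this family. Lpl, the lipase itself, had differences of -0.49 and -0.39, and its adjusted p of 0.054 ranged from 0.031 to 0.13 over the alternatives.

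Fgf21 encodes a fasting hormone of the liver that acts on adipose tissue and brain. It read 5.11 and 5.07 in WT and 4.58 and 4.67 in KO. The genotypes did not overlap. The differences were -0.53 and -0.40, or 1.44-fold and 1.32-fold. Fgf21 fell by 0.46 (SE 0.12, limma adjusted p 0.031), a call lost when all genes were tested without the expression filter (adjusted p 0.078), in a range of 0.011 to 0.078 over 8 alternatives. A model of genotype alone lost it without any 1 of the 4 arrays (0.064 to 0.14). Of 8 tested genes of the FGF21 axis, 3 fell and 0 rose. Creb3l3, a liver transcription factor that acts with PPAR alpha on Fgf21, was at -0.30 and -0.33. Its adjusted p of 0.021 ranged from 0.0016 to 0.15 over the alternatives. The growth factor Fgf1 fell by 0.76 (SE 0.09), and the other 5 did not pass. Among these the receptors Fgfr1, Fgfr3 and Fgfr4 were at mean differences of 0.23, 0.25 and 0.33, and Fgfr2 and the co-receptor Klb, added after their values were seen, at -0.12 and -0.22.

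Pdk4, the kinase that inhibits pyruvate dehydrogenase and so spares glucose in fasting, did not follow the other targets. It read 4.98 and 4.70 in the WT arrays and 4.98 and 4.84 in the KO arrays, so that both KO levels lay at or above the lower WT level. The differences of 0.00 and 0.14 had a mean of 0.07 (SE 0.12, limma adjusted p 0.79). The 95% interval of the fit runs from -0.20 to 0.34, which leaves room for a change of either sign. Of 10 tested genes of pyruvate dehydrogenase and its control, 1 rose and 1 fell. The subunit Pdha1 rose by 0.44 (SE 0.08). The phosphatase Pdp2 had differences of -0.31 and -0.65, and its adjusted p of 0.023 ranged from 0.0032 to 0.077 over the alternatives. The kinases Pdk1 and Pdk2 were at means of -0.08 and -0.19 without passing.

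Vnn1 ran opposite to the 7 genes that fell. It encodes a pantetheinase that recycles the vitamin of coenzyme A. Its level was 7.77 and 7.35 in the WT arrays and 8.52 and 8.45 in the KO arrays. The genotypes did not overlap, and the lowest value was that of WT at 8 months. Vnn1 was 1.67-fold higher at 2 months and 2.14-fold higher at 8 months, by 0.74 and 1.10 log2 units (mean 0.92, SE 0.10, limma adjusted p 4e-05). Counted from the highest gene it stood at place 116 of 11963. Of 12 tested genes of pantothenate and coenzyme A metabolism, 2 rose, Vnn1 and Nudt7, and 0 fell. Nudt7, a peroxisomal coenzyme A hydrolase, rose by 0.45 (SE 0.08). Vnn3, a near relative of Vnn1, had differences of 0.22 and 0.31 (adjusted p 0.067) and did not pass.

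At a threshold of 1.5-fold at a single age, 4 of the 9 genes were apart at 2 months and the same 4 at 8 months: Angptl4, Acot1 and Acot2 lower and Vnn1 higher at both. Over all genes tested 6.37% were 1.5-fold apart at 2 months, 3.98% higher and 2.39% lower, and 4.34% at 8 months, 2.41% higher and 1.93% lower. At both ages 1.06% were lower and 1.78% higher. The differences at the 2 ages share no array. They departed from each other by 0.01 in Angptl4, 0.02 in Cpt1a, 0.04 in Acot2 and 0.06 in Acot1. The departure was 0.36 in Vnn1 and 0.30 in Ehhadh, sizes reached by 15.1% and 22.0% of all genes tested. The median over all genes was 0.16. With single arrays, no test of a departure from 0 was possible.

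**Figure D2:**
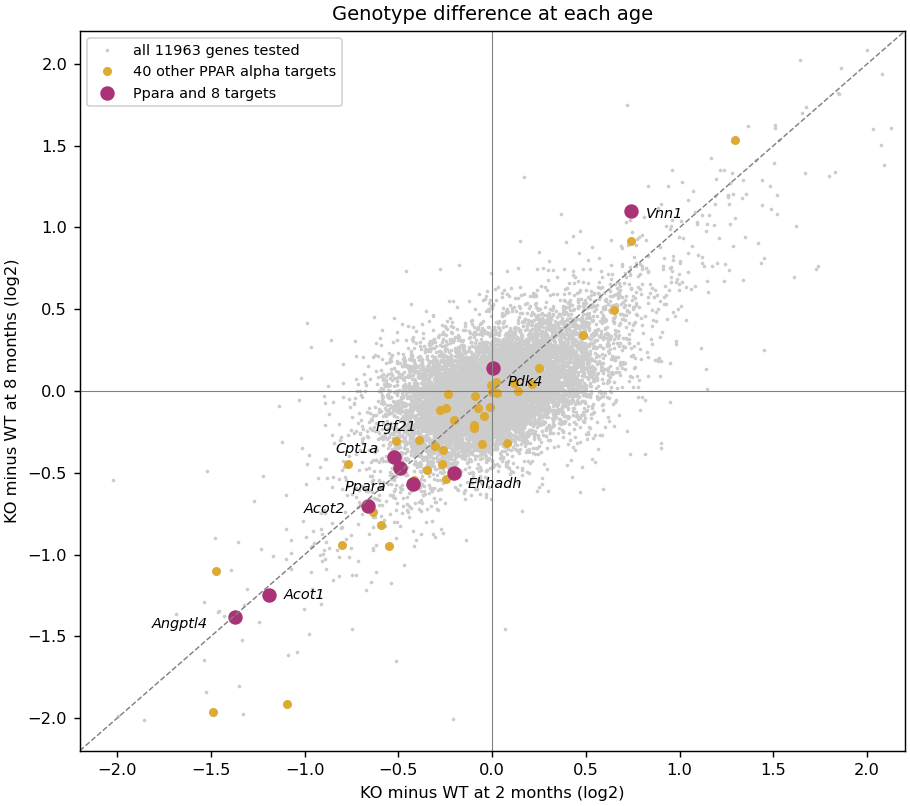
KO minus WT in log2 units at 2 months (horizontal axis) and at 8 months (vertical axis) for all 11963 genes tested (grey), 40 other PPAR alpha targets (yellow) and the 9 genes (purple, named); the dashed line marks equal differences, and 27 genes lie outside the axes of 2.2 log2 units. Angptl4, Acot1, Acot2 and Cpt1a lie close to the line at the lower left, Pdk4 near the centre and Vnn1 at the upper right.

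Differences with age were smaller than those with genotype in each of these genes except Pdk4. At 8 against 2 months, 0 of the 9 genes were 1.5-fold apart in WT and 0 in KO, and over all genes tested 0.652% were in each genotype. The limma model called 0 of the 9 genes for age, with 2 of the 9, Angptl4 and Vnn1, at an unadjusted p under 0.05. Over all genes tested it called 1 gene, the lysozyme Lyz2, which is 0.00836%, and 431 genes were at an unadjusted p under 0.05. In 7 of the 9 genes the level at 8 months was below that at 2 months in both genotypes, as in 27% of all genes tested. The difference with age was widest in Vnn1 in WT, at -0.42 against -0.06 in KO, followed by Pdk4 at -0.28 and -0.14 and Angptl4 at -0.22 and -0.23. Fgf21 was at -0.04 in WT and 0.09 in KO, and Acot2 at -0.01 and -0.05. Fgf21 and Ehhadh had opposite signs in the genotypes, as did 53% of all genes tested.

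In the wider set of PPAR alpha targets more genes fell than rose. Of 40 other targets tested, taken from a list of enzymes, transporters and lipid droplet proteins, 14 fell, 4 rose and 22 did not pass, which is to be read against the 4.26% and 6.81% given above. Their median difference of -0.15 at the younger and -0.19 at the older age compares with -0.51 and -0.49 in the 8 fasting targets. The lowest were the omega-hydroxylases Cyp4a10 and Cyp4a31, neighbours of close sequence, with means of -1.72 (SE 0.10) and -1.50 (SE 0.14), and G0s2, an inhibitor of triglyceride lipase, with -1.29 (SE 0.10). The highest were the fatty acid transporter Cd36, at 5.51 and 5.39 in WT and 6.81 and 6.92 in KO, the acyltransferase Mogat1, with a mean of 0.83 (SE 0.14), and malic enzyme Me1, with 0.57 (SE 0.08). Mogat1, 1 of the 4 that rose, read 3.12 and 3.13 in WT and 3.86 and 4.04 in KO. Its WT levels lay below the filter level of 3.34, so it was tested only through its KO levels. Me1 is also a lipogenic enzyme, and Cd36 and Mogat1 are known targets of PPAR gamma as well.

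**Figure D3:**
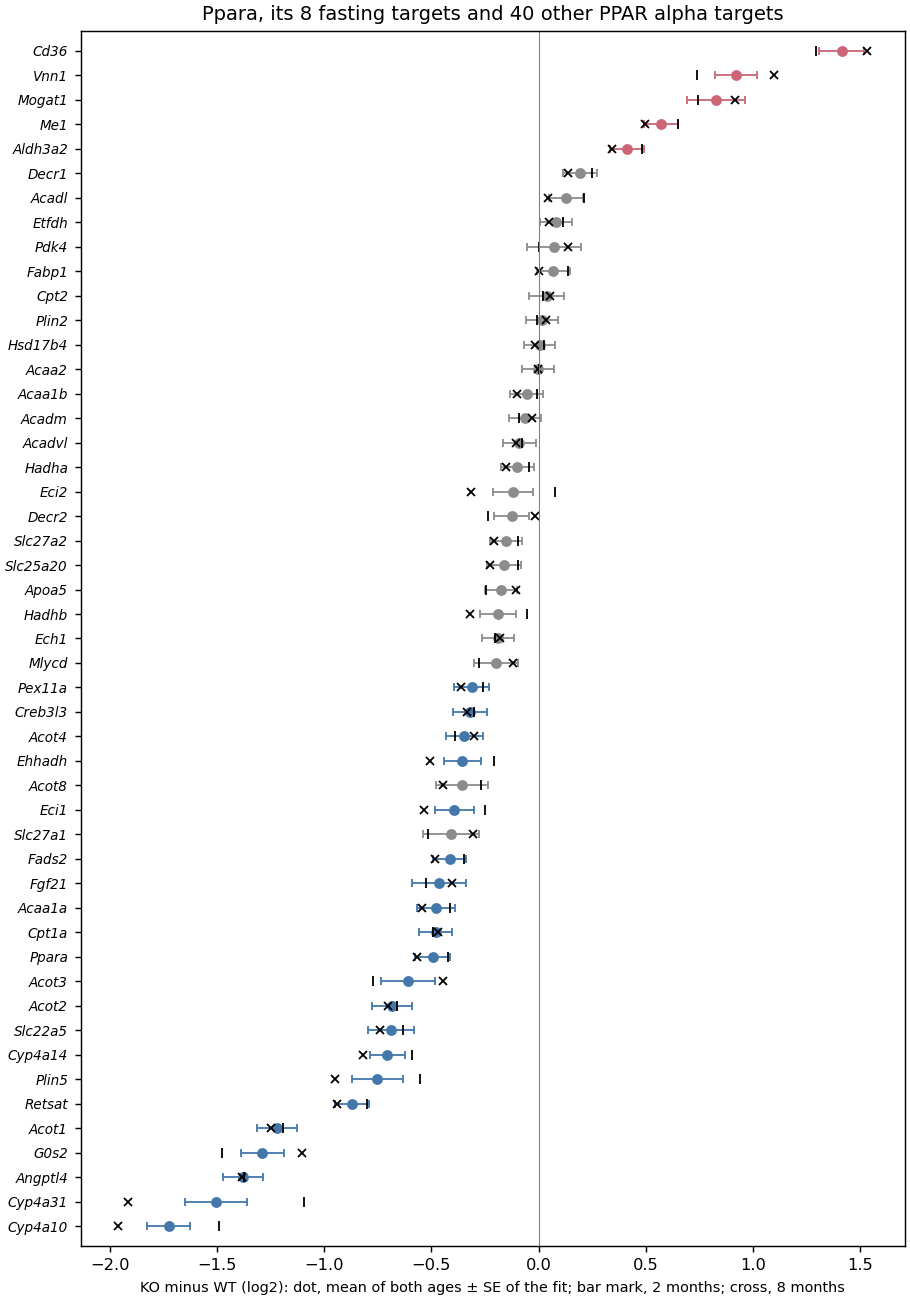
KO minus WT in log2 units (horizontal axis) for Ppara, the 8 fasting targets and 40 other PPAR alpha targets, ordered by the mean of both ages (dots, with the SE of the limma fit); bar marks show 2 months and crosses 8 months, and blue fell, red rose and grey did not pass. In blue are Ppara and 20 targets, from Cyp4a10 at -1.72 to Pex11a at -0.31, and in red 5 targets up to Cd36 at 1.41.

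The partners of the receptor were mostly not called, as were most genes tested. Over all genes tested 4.26% fell, 6.81% rose and 11.1% passed in either direction. Of 18 tested partners and coregulators, 2 fell, 1 rose and 15 did not pass, with median differences of -0.03 and 0.00. The coactivator Ppargc1b fell by 0.60 (SE 0.12), and Lpin1, a phosphatidate phosphatase that also acts as a coactivator of PPAR alpha, fell by 0.48 (SE 0.08). The related receptor Pparg rose by 0.57 (SE 0.10), with levels of 5.89 and 5.79 in WT and 6.42 and 6.40 in KO. Ppargc1a, the coactivator of fasting, had differences of 0.65 and 0.21, and its adjusted p of 0.076 ranged from 0.022 to 0.18 over the alternatives. The heterodimer partners Rxra and Rxrb were at means of -0.10 and -0.20, the third receptor Ppard at -0.33 and Hdac3, the deacetylase of the corepressor complex, at 0.17, and none of these passed.

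**Figure D4:**
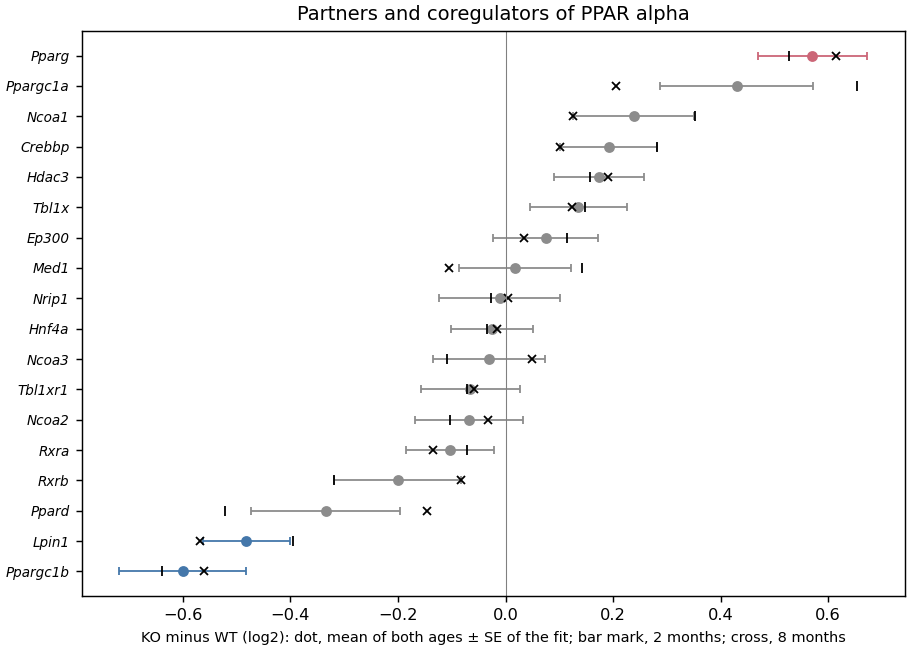
KO minus WT in log2 units (horizontal axis) for 18 partners and coregulators of PPAR alpha, ordered by the mean of both ages (dots, with the SE of the limma fit); bar marks show 2 months and crosses 8 months, and blue fell, red rose and grey did not pass. Ppargc1b and Lpin1 stand at the lower end in blue and Pparg at the upper end in red, and the other 15 are grey.

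Other gene groups of fasting and feeding were read beside these targets. Over all genes tested 6.81% rose and 4.26% fell. Of 3 tested genes of ketone body metabolism, Bdh1, Acat1 and Slc16a1, 0 passed, with means of -0.04, 0.08 and 0.01. Of 11 tested genes of gluconeogenesis and of fasting control by FOXO1 and CREB, 3 rose and 4 fell. Irs2, G6pc and Igfbp1, which insulin represses, rose by 0.90, 0.70 and 0.65. Foxo1, Crtc2 and Pcx fell by 0.41, 0.43 and 0.38, and Pck1, also repressed by insulin and chosen after its value was seen, fell by 0.28. Each of these 4 calls was lost under some alternative, with adjusted p of 0.003 to 0.074 for Foxo1, 0.005 to 0.068 for Crtc2, 0.00043 to 0.07 for Pcx and 0.0011 to 0.29 for Pck1. Of 10 lipogenic genes 9 rose and 0 fell, led by Fasn with 1.11 (SE 0.08) and Thrsp with 0.86 (SE 0.08), with list medians of 0.61 and 0.62.

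Some genes that report on other inputs to these targets also moved with the label. Their counts stand beside the 6.81% of all genes tested that rose and the 4.26% that fell. Of 10 genes of glucocorticoid response, its receptor Nr3c1 included, 4 fell, 1 rose and 5 did not pass (list medians -0.03 and -0.21). The lowest were Mt2, Fkbp5 and Zbtb16 at means of -3.40, -2.72 and -1.99. The others called were Klf9 at -0.48, chosen after its value was seen, and Per1 at 0.46 (adjusted p 0.0073 to 0.06 over the alternatives). Not passing were Sgk1 at 0.39 and Tat at 0.11. Mt1 at -0.09, Tsc22d3 at -0.11 and Nr3c1 at -0.04, added after their values were seen, did not pass either. Fkbp5 read 7.18 and 7.96 in the WT and 5.01 and 4.70 in the KO arrays. Of 11 tested genes of the integrated stress response 3 rose and 1 fell: Atf3, Ddit3 and Atf4 rose by 2.74, 1.13 and 0.51, and Trib3 fell by 0.87. Asns, a target of ATF4, was at 0.07 at 2 months and -1.46 at 8 months, and its adjusted p of 0.10 ranged from 0.0083 to 0.30 over the alternatives. The medians of this list were -0.12 and -0.11. Of 15 clock genes 3 rose and 5 fell, with Nfil3 at 0.97 and Ciart at -1.32, and with list medians of -0.03 and -0.05. The part of these groups in the levels of Angptl4, Fgf21 or Ppara was not tested.

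Markers of other liver cells were read in the same way, beside the 6.81% of all genes tested that rose and the 4.26% that fell. Of 9 tested Kupffer cell markers 2 rose, Cd5l and Vsig4, and 0 fell, and Clec4f was at a mean of 0.01. In 6 of the 9 both KO arrays read above both WT arrays, as in 29.1% of all genes tested. The median difference of the 9 was 0.15 at 2 months and 0.37 at 8 months. The log2 of their summed levels ran from 8.50 to 8.74 in WT and from 8.86 to 9.0 in KO. Of 10 endothelial markers 1 rose, Cdh5 (adjusted p 0.011 to 0.07 over the alternatives), and 0 fell, with sums of 9.12 to 9.16 and 9.11 to 9.23. Of 10 stellate cell markers 1 rose, Reln, and 3 fell, Ecm1, Col1a1 and Col3a1, with sums of 10.40 to 10.47 and 10.38 to 10.45. Of these 4 calls that of Ecm1 held under all 8 alternatives, while the adjusted p ranged from 0.026 to 0.14 for Reln, from 0.0024 to 0.075 for Col1a1 and from 0.0058 to 0.11 for Col3a1. For 8 hepatocyte markers the sums were 14.68 to 14.70 and 14.61 to 14.68. The part of cell composition in the 9 genes was not tested.

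The genes whose 4 values lay nearest to those of Ppara, after each gene was centred on its own mean, were found by the root mean square distance over the 4 arrays. Nearest was Map1lc3b, the autophagosome protein LC3, at 0.01 log2 units, which read 7.39 and 7.37 in WT and 6.97 and 6.79 in KO. It was followed by Mrpl23, Zfp777, Cdhr5, Cnppd1 and Hsd17b11, at distances of 0.02 to 0.03. Among the 9 genes, Cpt1a was nearest to Ppara at 0.05, then Ehhadh at 0.08, Fgf21 at 0.09 and Acot2 at 0.10. Acot1 and Angptl4 lay 0.36 and 0.45 from Ppara but 0.10 from each other, and Vnn1 lay farthest from Ppara at 0.72. The distances describe these 4 arrays only.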

How the data were processed

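The authors deposited log2 values, 1 per probe set and array. They came from RMA in version 1.0v of the Affymetrix Expression Console, according to labels given per the submitters' processing notes. RMA removes background, equalises the arrays by quantiles and combines the probes of a set, so small levels differ too little and a change of total RNA cannot be seen. The table does not name the logarithm, which RMA takes to base 2. The probe annotation, the build and which arrays were normalized together are not given in the sources used here. Arrays have no read depth, and their number limits the precision.

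Of 35556 probe sets, 21789 had 1 gene symbol, 1621 several and 12146 were not listed. Probe sets with 1 symbol were averaged per gene. A match of identifiers to RefSeq (GRCm38.p6) renamed 0 genes and failed for 91 probe sets. Genes above the 40th percentile of mean level were tested with limma 3.58.1 (R 4.3.3): lmFit on genotype and age without interaction, eBayes with a trend on level, and Benjamini-Hochberg adjusted p-values across the 11963 genes. The fit was tested on simulated data with independent noise drawn from its own variance model, which holds no spread between pools or mice.

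Named genes are the 9 genes, Sirt6, the partners of PPAR alpha, up to 3 highest and 3 lowest of each list, and the nearest by distance, 6 for Ppara and 3 for the others. A gene outside this rule is said to be chosen after its value was seen, except Alb, Adipoq and Lep, which mark cell types, and Lyz2, the 1 gene called for age. The genes and lists were chosen with earlier results of these data known. Alternatives were other filters, normalizations, variance models, probe set choices, model terms, fold thresholds and motif limits. Listed genes without a probe set of 1 symbol were not analysed here.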

Additional observations from a re-analysis of the deposited data

Results flagged for a closer look

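In 2 of the 9 genes the difference with age had opposite signs in the genotypes, each from 1 array per group, and the difference between them was not tested. Ehhadh was 0.12 log2 units higher at 8 than at 2 months in WT and 0.18 lower in KO, and the genotype difference at 8 months minus that at 2 months was -0.30. Fgf21 was at -0.04 in WT and 0.09 in KO, which is 0.12 apart. Opposite signs occurred in 53% of all genes tested.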

How the results depend on the processing

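Of the 9 genes, the 7 other than Ehhadh and Fgf21 stayed on their side of the threshold for genotype under all 8 alternative fits, with Angptl4 between -1.43 and -1.34, Acot1 between -1.27 and -1.18, Vnn1 between 0.86 and 0.96, Acot2 between -0.74 and -0.64, Ppara between -0.55 and -0.45, Cpt1a between -0.50 and -0.44 and Pdk4 between 0.06 and 0.11. The number of the 9 genes called for genotype lay between 6 and 8, and that of the 40 other targets between 12 and 22. Over all genes the genotype count fell from 1325 to 752 without the expression filter and to 846 without the intensity trend. The split of 815 that rose and 510 that fell became 897 and 864 under quantile normalization again and 901 and 392 under median centring. The age count of 1 became 0 without the filter, with a 20th percentile filter, without the trend and with age as the only term, 2 with the highest probe set, 3 under quantile normalization again and under cyclic loess, and 14 under median centring. At 1.2-fold, 4062 genes differed by genotype at 2 months and 2752 at 8 months, and 1222 by age in WT and 1787 in KO. At 2-fold these were 166, 150, 15 and 1, and without the filter 120 genes were 1.5-fold apart by age in KO. With up to 3 mismatches the paired motif was found in 1 of the 7 windows, and an exact half-site, added after seeing the data, also in 1. Of 165 named genes, 114, called or not called, kept their sign and their side of the threshold under all 8 fits. Of the others, 23 lost a call and 13 gained a call in at least 1 fit. A further 15 without a call changed sign in at least 1, and 0 called genes reversed. Where a call changed, the cause was not tested. No paired analysis was possible because each group is 1 array. Without any 1 array the additive model has no residual degree of freedom. A model of genotype alone, added after seeing the data, then called 839 genes without WT at 2 months, 1015 without WT at 8 months, 504 without KO at 2 months and 839 without KO at 8 months, with the lone array of a genotype assumed to vary like the others. Of the 9 genes it called 6 to 7. Fgf21 lost its call each time (adjusted p 0.064 to 0.14) and Ehhadh without either 8-month array (0.064 and 0.092), and the other 6 kept theirs.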

Other observations

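Genes nearest to the other 8 in their 4 centred values are given as a description of these arrays. Nearest to Angptl4 were the thioredoxin-interacting protein Txnip, with 9.44 and 9.32 in WT and 8.01 and 7.94 in KO, then Tmem184c and Osgin1, at distances of 0.07, 0.08 and 0.10. Tmem184c was also nearest to Acot1, at 0.05, followed by Urad, the decarboxylase at the end of the uric acid pathway, at 0.075 and the mitochondrial exchanger Slc8b1 at 0.08. Nearest to Acot2 were the mitochondrial import cochaperone Grpel2 at 0.01, the carnitine transporter Slc22a5 and the clock gene Per3, both at 0.03.

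Nearest to Vnn1 was Onecut1, a hepatocyte transcription factor, at 0.03, which read 6.17 and 5.82 in WT and 6.98 and 6.88 in KO, then the lipogenic gene Thrsp and Sema5b, both at 0.06. Nearest to Ehhadh were the liver glycogen synthase Gys2, the DNA repair gene Xpa and Scrn2, at distances of 0.01, 0.01 and 0.02. Cpt1a lay nearest to Mcrs1, Tapbp and Tfb1m, Fgf21 to Sfxn2, Mfsd1 and Eln, and Pdk4 to Evi5l, Pofut2 and Pfn1.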
